A study of Rattus norvegicus with 28 samples.

Results

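Embigin (Emb), its relatives basigin (Bsg) and neuroplastin (Nptn), the lactate transporters Slc16a1, Slc16a3 and Slc16a7 and the lactate dehydrogenase genes Ldha and Ldhb were followed in the gastrocnemius muscle of rats kept paralysed and mechanically ventilated. These 8 genes, of 19506 gene symbols in the table, were chosen by symbol and were measured by 10 of its 26208 probe sets. Embigin was selected on these data, because it had the largest rise of any named gene against control, so its values are given as a description with no test. The other 7 genes were taken as its relatives, transport partners and the enzymes that make or use the transported lactate.

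RNA came from the proximal part of the gastrocnemius of 28 female Sprague-Dawley rats and was hybridised to Affymetrix Rat Gene 1.0 ST arrays, which read each gene through a set of probes spread along its transcript. The 5 Control rats were sham-operated under isoflurane, breathed on their own, were not paralysed and were killed within hours. The other rats received longer isoflurane, the neuromuscular blocker α-cobrotoxin, which closes the acetylcholine receptor of the motor endplate, and mechanical ventilation. They formed the groups 6h-4d (6 hours to 4 days, 13 rats), 5-8d (4 rats) and 9-14d (6 rats). Each of these groups pools rats killed on different days, and the earliest spans the widest range in relative terms. The long anaesthesia, the paralysis and the ventilation always came together, so they cannot be told apart. The study calls the rats young adults, and no ages were found in the sources used here. The source description of the Control samples names the blocker and ventilation too, against their title, sample type and the series design, which were followed. Every change against Control rests on that reading. The series design text gives the middle group as reaching 9 days, whereas its sample labels say 5-8d.

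The table holds, for each probe set, the log2 change of each duration against Control and its adjusted p. Values of single rats and signal levels were not analysed here, so no overlap between rats, no level of a gene and no level of a tissue marker can be given. The 3 comparisons share the 5 Control rats. In whole muscle, fewer cells of a type and less RNA per cell cannot be told apart. In the text, rose and fell are used for an adjusted p below 0.05 over all probe sets, and called for a change that was also at least 2-fold.

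Lactate leaves and enters muscle fibres through monocarboxylate transporters (MCTs), which carry 1 lactate with 1 proton across the plasma membrane. MCTs reach the membrane only in the company of a small immunoglobulin-type glycoprotein. Basigin (CD147) is the usual companion of MCT1 and MCT4, embigin (gp70) is the known partner of MCT2 and can also accompany MCT1, and neuroplastin is the third protein of this family. Basigin and neuroplastin are also subunits of plasma membrane calcium pumps. MCT4, encoded by Slc16a3, is abundant in fast glycolytic fibres and exports lactate, whereas MCT1, encoded by Slc16a1, is abundant in oxidative fibres and serves uptake. Ldha encodes the muscle-type subunit of lactate dehydrogenase, which favours lactate production, and Ldhb encodes the heart-type subunit, common in oxidative fibres.

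All 8 genes had a promoter sequence in RefSeq (build GRCr8). The 250 bases before the annotated start are shown for Emb, the gene with the largest change, and for Chrna1, the acetylcholine receptor α subunit, whose change over the 3 durations was among the nearest to that of Emb. Capitals mark every E-box, CANNTG, a sequence that myogenic factors such as myogenin can bind and that reads as an E-box on both strands. Emb lies at chr2:50803218-50803467 on the plus strand and Chrna1 at chr3:78877354-78877603 on the minus strand, and both are written in the direction of transcription.
Emb: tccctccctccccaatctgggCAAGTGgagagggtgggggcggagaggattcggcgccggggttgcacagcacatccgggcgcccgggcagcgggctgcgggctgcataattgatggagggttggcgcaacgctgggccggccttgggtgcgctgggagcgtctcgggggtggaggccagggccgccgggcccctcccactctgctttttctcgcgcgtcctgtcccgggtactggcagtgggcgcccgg
Chrna1: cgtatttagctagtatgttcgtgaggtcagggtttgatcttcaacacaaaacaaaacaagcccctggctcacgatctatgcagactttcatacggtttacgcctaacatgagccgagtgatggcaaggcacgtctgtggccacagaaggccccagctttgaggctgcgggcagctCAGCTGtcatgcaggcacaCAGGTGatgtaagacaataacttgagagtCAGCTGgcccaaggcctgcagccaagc

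The Emb window held 1 E-box and the Chrna1 window held 3. At least 1 E-box was present in 65.5% of all 33469 promoter windows of this length, and the median window held 1, so the count in Emb was an ordinary one. A further sequence searched was CCGGAA, the N-box of synaptic genes, on both strands. It was in none of the 8 members' windows and in 12.6% of all windows.

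The core of the hypoxia response element, ACGTG, was searched on both strands, because Ldha is a textbook target of hypoxia-inducible factors. It was present in 16.6% of all windows. Of the 8 members it was in the windows of Bsg, Nptn, Slc16a1, Slc16a7 and Ldha, and these letters were not in the windows of Emb, Slc16a3 and Ldhb. Nptn held the most, 4 matches, while Slc16a1 held 2 and Slc16a7 held 1. Bsg and Ldha are shown because both held 3 matches while their changes in muscle ran in opposite directions. Capitals mark the matches. The palindrome CACGTG holds 1 match on each strand and is at the same time an E-box. Bsg lies at chr7:10651006-10651255 on the minus strand and Ldha at chr1:106507842-106508091 on the plus strand.
Bsg: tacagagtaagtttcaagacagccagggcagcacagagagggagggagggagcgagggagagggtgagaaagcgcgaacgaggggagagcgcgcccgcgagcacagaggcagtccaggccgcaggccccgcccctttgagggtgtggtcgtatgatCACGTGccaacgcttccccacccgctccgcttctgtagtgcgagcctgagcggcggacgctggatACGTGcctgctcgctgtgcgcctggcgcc
Ldha: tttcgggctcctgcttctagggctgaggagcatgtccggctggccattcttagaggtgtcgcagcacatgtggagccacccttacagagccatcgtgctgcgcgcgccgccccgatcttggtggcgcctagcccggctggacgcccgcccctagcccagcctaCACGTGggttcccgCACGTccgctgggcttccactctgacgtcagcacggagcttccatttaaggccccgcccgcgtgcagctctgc
These matches describe the letters of the windows, and no binding was measured.

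Emb transcript was 35.5-fold higher than in Control at 5-8d and 58.5-fold higher at 9-14d. Its probe set (chr2:49098741-49155221 of build RGSC 3.4, plus strand) has 25 probes, of which 24 match the Emb transcript. At 6h-4d the log2 change was 1.01 with a standard error (SE) of 0.49, and its 95% interval ran from 0.011 to 2.00. At 5-8d it was 5.15 (SE 0.62), which is a ratio between 14.7 and 85.5 by its 95% interval. At 9-14d it was 5.87 (SE 0.56), a ratio between 26.4 and 129.6. The intervals of Emb are unadjusted and take no account of its being chosen for its rise, so no test is read from them.

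Among the 20596 probe sets with a symbol, Emb ranked 87 from the top at 6h-4d, where metallothioneins led, and 1 at both 5-8d and 9-14d. The next named gene at 5-8d was Gpnmb with a log2 change of 5.04, close to that of Emb, and at 9-14d it was Cst7 with 4.87, a full log2 unit below. At 9-14d, 1 probe set without a symbol stood above Emb with a log2 change of 6.13.

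Of the differences in Emb between successive durations, that from the earliest group to the middle one was the larger. The earliest group pools rats killed from 6 hours to 4 days, so a rise within it cannot be placed in time. The 5-8d group was 4.14 log2 units (SE 0.53) above the 6h-4d group, and the 9-14d group was 4.86 (SE 0.46) above it. Between 5-8d and 9-14d the difference was 0.72 with a 95% interval from -0.50 to 1.95, which holds both a further rise and a level course. Rats of the same group differed widely in Emb. Its within-group standard deviation (SD), shared over the 4 groups in the fit, was 0.92 on the log2 scale, above that of 99.7% of all probe sets, whose median SD was 0.20. Which group carried this spread cannot be read from the table.

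**Figure D1:**
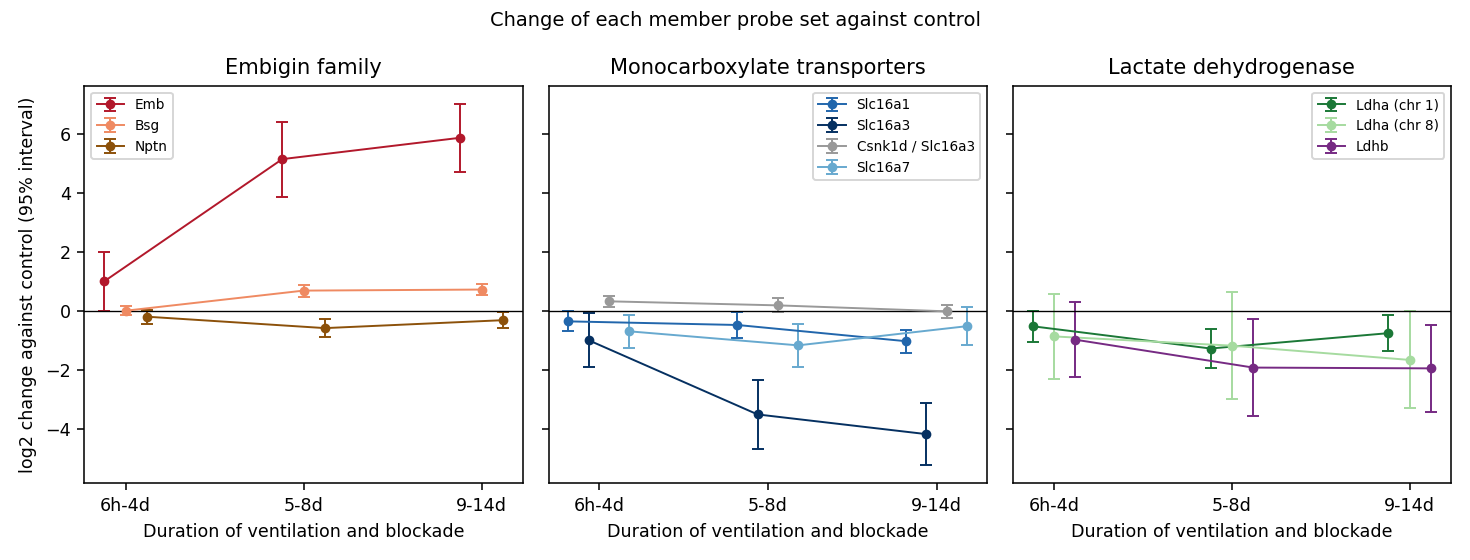
Log2 change against Control (vertical axis) at the 3 durations (horizontal axis) for each member probe set, in panels by role. Points are the fitted changes and bars their 95% intervals. Emb climbs to 5.87 and Slc16a3 drops to -4.17, while the probe set shared by Csnk1d and Slc16a3 stays near 0.

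Basigin rose as well, by a far smaller and far more even amount. Its probe set (chr7:11507914-11515056, minus strand, RGSC 3.4) matches Bsg with all 32 probes. The log2 change was 0.01 (SE 0.08) at 6h-4d, 0.69 (SE 0.10, adjusted p = 7.57e-06) at 5-8d and 0.73 (SE 0.09, adjusted p = 4.00e-07) at 9-14d, all from the limma fit. The ratio to Control was 1.62 at 5-8d and 1.66 at 9-14d, below the 2-fold minimum for a call. At 6h-4d its 95% interval ran from -0.15 to 0.17, so a change of the later size lay outside it. The within-group SD of Bsg was 0.15 log2 units, at percentile 8.67 of all probe sets, the lowest of the members.

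Neuroplastin went the other way. Its probe set (chr8:62389893-62466128, plus strand, 27 of 27 probes) changed by -0.19 log2 units (SE 0.11, adjusted p = 0.41) at 6h-4d. It fell by 0.58 (SE 0.14, adjusted p = 0.00322) at 5-8d, which is a ratio of 0.669. At 9-14d the change was -0.31 (SE 0.13, adjusted p = 0.0623), which missed the threshold. Of the 3 glycoproteins, then, embigin was much higher, basigin rose modestly and neuroplastin was lower in the middle group. The difference between members was not tested, because the table does not hold how their values vary together over the rats.

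Slc16a3, which encodes MCT4, had the largest fall of the members. Its own probe set (chr10:110159679-110163182, plus strand) matches the gene with 24 of 26 probes. The log2 change was -0.99 (SE 0.45, adjusted p = 0.25) at 6h-4d, a ratio of 0.503 that did not pass the test. It fell by 3.50 (SE 0.57, adjusted p = 3.69e-05) at 5-8d, and the ratio of 0.0881 had a 95% interval from 0.0392 to 0.198. It fell by 4.17 (SE 0.51, adjusted p = 3.83e-07) at 9-14d, to a ratio of 0.0555 with an interval from 0.0267 to 0.115. From the bottom it ranked 20 of 26208 probe sets at 5-8d and 5 at 9-14d. Its within-group SD of 0.85 was, like that of Emb, above 99.6% of all probe sets.

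A second probe set carries the symbols Csnk1d and Slc16a3 together, and it did not follow the first. It lies on the opposite strand (chr10:110162612-110197268, minus strand) and overlaps the first by 571 bases. Only 3 of its 38 probes match Slc16a3. Csnk1d, casein kinase 1 δ, is the neighbouring gene. The log2 change was 0.33 (SE 0.09, adjusted p = 0.0437) at 6h-4d, 0.19 (SE 0.12, adjusted p = 0.252) at 5-8d and -0.01 (SE 0.11, adjusted p = 0.944) at 9-14d. By its probe matches it reads mainly Csnk1d, and it is kept apart from Slc16a3 in what follows.

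Slc16a1, which encodes MCT1, fell late. Its probe set (chr2:199860337-199880647, plus strand, 20 of 25 probes matching) changed by -0.35 (SE 0.16, adjusted p = 0.275) at 6h-4d and by -0.47 (SE 0.21, adjusted p = 0.0994) at 5-8d. At 9-14d it fell by 1.02 (SE 0.19, adjusted p = 0.000125), a ratio of 0.492 with an interval from 0.376 to 0.644. That value lay at the edge of the 2-fold minimum, and centring each comparison on the median of all probe sets brought the change to -0.95, short of a call, with an adjusted p of 0.000272.

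Slc16a7 encodes MCT2, the transporter with the highest affinity for lactate and the one embigin is best known to accompany. Its probe set (chr7:65209992-65370020, minus strand, 22 of 26 probes) changed by -0.69 (SE 0.28, adjusted p = 0.186) at 6h-4d. At 5-8d it fell by 1.16 (SE 0.35, adjusted p = 0.0147), a ratio of 0.446. At 9-14d the change was -0.51 (SE 0.32, adjusted p = 0.209), with a 95% interval from -1.17 to 0.14. None of the 3 transporters was higher than Control at any duration, and beside the high Emb the transcript of MCT2 was at 0.446 of Control at 5-8d and 0.701 at 9-14d.

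**Figure D2:**
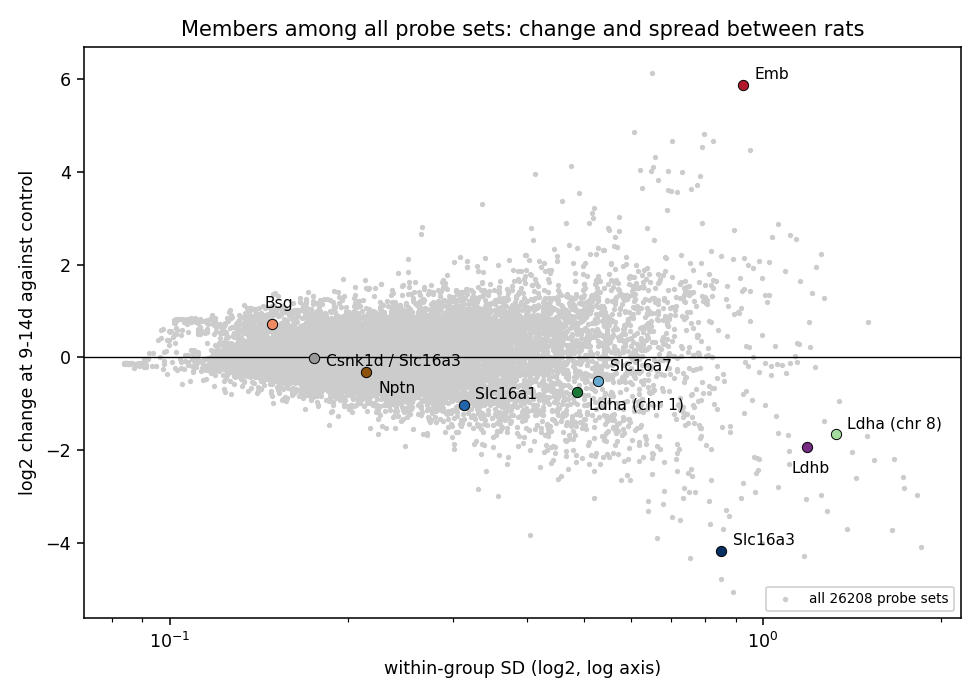
Log2 change at 9-14d against Control (vertical axis) by within-group SD (horizontal log axis) for all probe sets in grey, with the 10 member probe sets in colour. Emb and Slc16a3 lie at opposite ends of the change and have SDs of 0.92 and 0.85, whereas Bsg has an SD of 0.15.

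Both subunit genes of lactate dehydrogenase had negative log2 changes at each duration. The probe set of Ldha at its own gene (chr1:97403075-97412549, plus strand, 8 of 11 probes matching) changed by -0.52 (SE 0.26, adjusted p = 0.307) at 6h-4d. It fell by 1.27 (SE 0.33, adjusted p = 0.00423) at 5-8d, to a ratio of 0.415, and by 0.75 (SE 0.29, adjusted p = 0.0475) at 9-14d, to a ratio of 0.594 that was not called. The fall at 9-14d missed the threshold when each comparison was centred on its median (-0.68, adjusted p = 0.0783) and with adjustment over the 3 comparisons together (adjusted p = 0.0688). A second probe set named Ldha lies on another chromosome (chr8:31685565-31687173), and 5 of its 8 probes match the Ldha transcript. Its changes of -0.86, -1.17 and -1.66 at the 3 durations ran the same way but did not pass the test, with adjusted p of 0.6, 0.371 and 0.106. Its SD of 1.33 was the largest of the members. Signal from the gene and from a near copy cannot be separated by these probes.

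Ldhb (chr4:180061567-180079530, minus strand, 25 of 27 probes) had larger estimates and wider errors than Ldha. The log2 change was -0.97 (SE 0.62, adjusted p = 0.468) at 6h-4d and -1.92 (SE 0.80, adjusted p = 0.0767) at 5-8d. At 9-14d it fell by 1.94 (SE 0.72, adjusted p = 0.0359), to a ratio of 0.26 with a 95% interval from 0.0937 to 0.721. With adjustment over the 3 comparisons together the adjusted p was 0.0525 and the call was lost. Its SD was 1.19. The 95% intervals of Ldha and Ldhb overlapped at every duration, and a shift between the muscle-type and the heart-type subunit was not tested.

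Counted together without Emb, 0 of the 9 other member probe sets were called at 6h-4d, where 0.305% of all probe sets were called higher and 0.244% lower. At 5-8d, 3 were called lower (Slc16a3, Slc16a7 and Ldha) and 0 higher, beside 2.66% lower and 2.55% higher over all. At 9-14d, 3 were called lower (Slc16a1, Slc16a3 and Ldhb) and 0 higher, beside 2.12% and 3.01%. Without the fold minimum, 1 probe set (Csnk1d with Slc16a3) was higher at 6h-4d, where 1.49% of all were higher and 2.06% lower. At 5-8d, 1 was higher (Bsg) and 4 were lower, beside 14.9% higher and 11.4% lower over all. At 9-14d, again 1 was higher and 4 lower, beside 17.3% and 18.2%. The members with a fall were thus a larger part of their number than over all probe sets, but the genes were picked with earlier results in view and no test of the group was made.

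The durations differed from each other mostly between the earliest group and the later ones. Between 6h-4d and 5-8d, Slc16a3 fell by a further 2.51 log2 units (SE 0.49, adjusted p = 0.000325), the only call among the 9 probe sets, beside 2.68% of all probe sets called. Without the fold minimum, Bsg rose by 0.68 (SE 0.09, adjusted p = 7.77e-07) and Nptn fell by 0.39 (SE 0.12, adjusted p = 0.0227), so that 3 of 9 passed, beside 21.3% of all. Ldha changed by -0.75 (SE 0.28, adjusted p = 0.0521) over the same step.

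Between 6h-4d and 9-14d, Slc16a3 fell by 3.18 (SE 0.42, adjusted p = 8.37e-07), the single call, beside 3.32% of all probe sets. Bsg rose by 0.72 (SE 0.07, adjusted p = 9.57e-09), Slc16a1 fell by 0.67 (SE 0.15, adjusted p = 0.00125) and the probe set of Csnk1d with Slc16a3 fell by 0.34 (SE 0.09, adjusted p = 0.00321), so that 4 of 9 passed without the fold minimum, beside 35.5% of all. That share is close to the background. Ldhb changed by -0.97 over this step, with an interval from -2.17 to 0.23.

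From 5-8d to 9-14d, 0 of the 9 probe sets passed either rule of the limma-based test, beside 0.21% called and 0.408% below the adjusted p over all. The estimates pointed both ways. Slc16a1 differed by -0.55 with a 95% interval from -0.96 to -0.14 (adjusted p = 0.214), which by itself lies below 0 before adjustment. Slc16a7 differed by 0.65 (interval -0.05 to 1.35), Ldha by 0.52 (interval -0.12 to 1.16) and Nptn by 0.27 (interval -0.02 to 0.55). With 4 and 6 rats these steps were not resolved, and the dip of Slc16a7, Ldha and Nptn at 5-8d was not shown to be a dip.

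**Figure D3:**
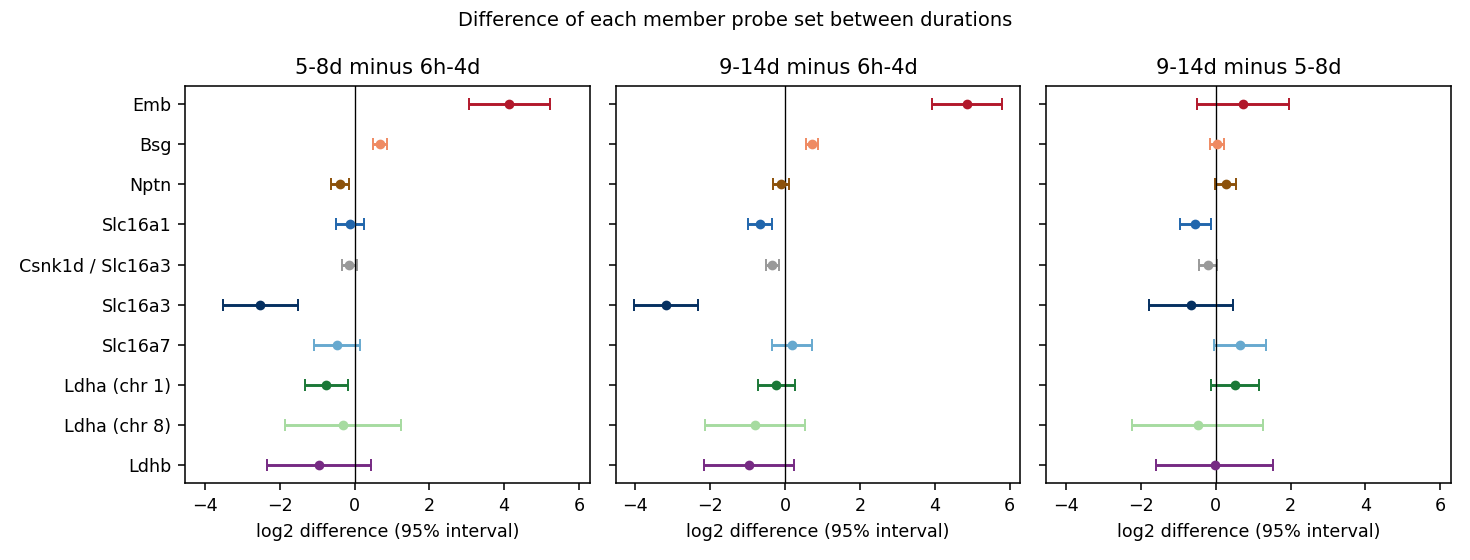
Difference between durations (horizontal axis, log2, with 95% intervals) for each member probe set, 1 panel for each pair of durations on the same scale. Emb and Slc16a3 stand away from 0 in the first 2 panels, and in the last, 9-14d minus 5-8d, every interval but that of Slc16a1 includes 0.

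The related genes were read from lists of symbols, 1 probe set a gene. Each count stands beside the median of all probe sets, which was -0.01 at 6h-4d, -0.04 at 5-8d and -0.07 at 9-14d. The shares of all probe sets passing each rule, given above with the member counts, are the background for these counts too. The other members of the monocarboxylate transporter families were almost all flat. Of 12 measured, 1 was called at 5-8d and at 9-14d, with list medians of -0.06 and -0.05. This was Slc16a10, an aromatic amino acid transporter of the same family, which fell by 2.20 (SE 0.31, adjusted p = 6.09e-06) at 5-8d and by 1.80 at 9-14d. Slc16a4, Slc16a6 and Slc16a8 did not pass at any duration.

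Part of the other enzymes and carriers of lactate and pyruvate fell. Of 10 genes measured, 5 were called lower at 5-8d and 5 at 9-14d, 7 and 9 passed without the fold minimum, and 0 were higher. The list medians were -0.93 and -0.95. Ldhd, the mitochondrial enzyme of D-lactate, fell by 1.74 (adjusted p = 3.47e-07) at 5-8d and by 1.86 (adjusted p = 6.82e-09) at 9-14d. Dlat, the core acetyltransferase of pyruvate dehydrogenase, named after its values were seen, fell by 1.56 and 1.58. Brp44l (now Mpc1), which encodes a subunit of the mitochondrial pyruvate carrier and was also named after its values were seen, fell by 1.02 and 1.07. The glycolysis list had 6 of 11 genes called lower at 5-8d and 6 at 9-14d, 9 lower without the fold minimum at each, and medians of -1.13 and -1.08. Pfkm, muscle phosphofructokinase, fell by 1.66 at 5-8d and by 1.48 (adjusted p = 6.23e-07) at 9-14d.

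The other partners of basigin and neuroplastin showed no shared direction. Of 12, 1 was called higher and 1 lower at both 5-8d and 9-14d, around list medians of 0.0093 and -0.05. Ppia, cyclophilin A, an extracellular ligand of basigin, rose by 1.22 (adjusted p = 2.56e-05) and 1.42 (adjusted p = 3.28e-07). The array has 5 probe sets for Ppia with values from 1.41 to 1.52 at 9-14d, and copies of this gene cannot be told apart by them. Atp2b3, 1 of the plasma membrane calcium pumps that neuroplastin and basigin accompany, fell by 2.00 (adjusted p = 9.03e-07) and 2.31 (adjusted p = 5.89e-09). The pumps Atp2b1, Atp2b2 and Atp2b4 changed by -0.09, -0.28 and -0.04 at 9-14d, and of these Atp2b2 fell (adjusted p = 0.0192). At 5-8d Atp2b4 fell by 0.66 (adjusted p = 0.0248), and Atp2b1 and Atp2b2 did not pass.

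Genes that handle the proton carried with lactate moved both ways. Of 8, 2 were called lower and 1 higher at 5-8d, and 2 lower and 0 higher at 9-14d, with medians of -0.51 and -0.08. Car14, a membrane-bound carbonic anhydrase, fell by 1.83 at 5-8d and 1.49 (adjusted p = 0.000253) at 9-14d, and Car4, another that is known to aid MCT transport and was named after its values were seen, fell by 1.23 at both.

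Regulators of these genes under hypoxia or endurance activity were mixed. Of 14, 1 was called higher and 1 lower at 6h-4d, 1 and 5 at 5-8d and 2 and 3 at 9-14d, with medians of -0.35, -0.46 and -0.77. Myc, a transcription factor with many glycolytic targets, rose by 1.87 at 6h-4d and by 2.01 (adjusted p = 7.59e-05) at 9-14d. Vegfa, the endothelial growth factor and a hypoxia target, fell by 1.41 at 5-8d and 1.70 (adjusted p = 0.00108) at 9-14d. Hif1a, the hypoxia-inducible factor itself, named after its values were seen, changed by -0.08, -0.06 and -0.02, and none passed.

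Among the genes nearest to Emb in their 3 changes, by Euclidean distance in log2 units over all named probe sets, were Gpnmb (distance 1.69), Chrna1 (1.83), Ppp1r14c (2.08) and Cst7 (2.12). Chrna1 is the acetylcholine receptor α subunit, which changed by 0.05, 4.00 and 4.81. Gpnmb is a transmembrane glycoprotein, with changes of 1.96, 5.04 and 4.47. Ppp1r14c is an inhibitor of protein phosphatase 1 and changed by 0.67, 4.28 and 4.02. Cst7 encodes the cysteine protease inhibitor cystatin F and changed by 0.53, 3.34 and 4.87. At 5-8d Gpnmb ranked 2 and Ppp1r14c 4 among the named probe sets, and at 9-14d Cst7 ranked 2 and Chrna1 3. Emb was chosen as the named gene with the largest rise, so its nearest genes are largely set to be other steep risers. These distances are large beside those of the other members, as few genes lie near such an extreme. The likeness is a description that follows from the choice.

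**Figure D4:**
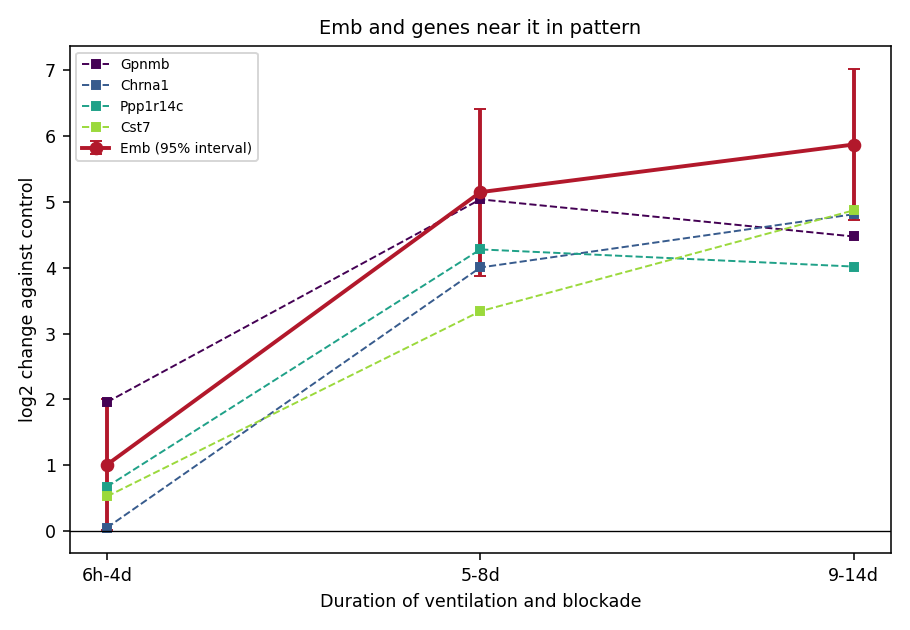
Log2 change against Control (vertical axis) at the 3 durations (horizontal axis) for Emb (red, with 95% intervals). Dashed lines are 4 named genes among those at the smallest distance from it. These genes reach 4.02 to 4.87 at 9-14d, and Emb, chosen as the named gene with the largest rise, reaches 5.87.

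The list of denervation response genes held 1 of those neighbours in pattern, Chrna1. Of its 11 genes, 3 were called higher at 6h-4d, 9 at 5-8d and 9 at 9-14d, and 0 were lower at any duration. The list medians were 0.05, 2.44 and 3.18. Chrna1 rose by 4.00 (adjusted p = 2.52e-06) and 4.81 (adjusted p = 1.01e-08), the largest rise of the list at 9-14d. Every gene of the list stayed below Emb at 5-8d and at 9-14d, but Emb was chosen for its largest rise, so this follows from the choice.

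The patterns nearest to the other called members named different genes. Nearest to Slc16a3 was Myl2 (distance 0.52), the regulatory myosin light chain of slow fibres and heart, with changes of -1.04, -3.31 and -3.70, followed by RGD1304931 and LOC691300. Nearest to Slc16a1 were Pwwp2b (0.058), Abcb9 and Rbpms2, and nearest to Slc16a7 were Myadm (0.056), Cdc42ep3 and Axl, a receptor tyrosine kinase. Nearest to Ldha were LOC290704 (0.10), Sh3kbp1 and Sypl2, a protein of the muscle triad junction, and nearest to Ldhb were Wfdc1 (0.075), Irs1, the adaptor of the insulin receptor, and Fitm2, a lipid droplet protein. The likeness is over 3 comparisons that share their controls and is given as a description.

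Markers of the cell types and fibre types that the piece of muscle can hold were read as changes, since their levels were not analysed here. Macrophage and leukocyte markers were called higher in 1 of 12 genes at 6h-4d and in 0 at 5-8d, where their changes ran from -0.24 to 0.47. At 9-14d, 9 of 12 were called higher, with a median of 1.22, a lowest value of 0.68 and a highest of 1.80, that of Lyz2, the macrophage lysozyme (adjusted p = 0.00102). Schwann cell markers were called in 0 of 9 genes at each duration, with values from -0.90 to 0.91. Myf5, a satellite cell factor, rose by 1.52 at 5-8d and by 2.15 (adjusted p = 5.02e-09) at 9-14d, in a list of 7 where 1 and 2 were called higher and the medians were 0.27 and 0.26. Without the fold minimum, 1 gene of that list was higher and 1 lower at 5-8d, and 2 and 2 at 9-14d. Over all probe sets that rule passed 14.9% higher and 11.4% lower at 5-8d, and 17.3% and 18.2% at 9-14d. The lowest values of the list were -0.92 and -0.70. Endothelial markers had 1 of 8 called lower at 5-8d and at 9-14d, with medians of -0.50 and -0.48, led by Cd34, which fell by 1.15 (adjusted p = 4.02e-06) at 9-14d. The part of these cells in the changes of Emb, Bsg and the transporters was not tested.

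Slow fibre markers had negative medians at each duration, as did the fast fibre, general muscle fibre, fibroblast, endothelial and red cell lists. Nptn, the 3 transporter genes, Ldha and Ldhb also had negative changes at each duration. Whether markers and members vary together over the rats was not tested. Of the 8 slow fibre markers, 0 were called at 6h-4d, 2 were lower at 5-8d and 5 at 9-14d. Their medians were -1.06, -2.16 and -2.52, and their median SD was 1.60 against 0.20 over all probe sets. Myl3, the slow essential light chain, fell by 4.09 (adjusted p = 0.00561) at 9-14d. Fast fibre markers had 2 of 9 called lower at 5-8d and at 9-14d, with medians of -0.57 and -0.41, and Myh2, the myosin of fast oxidative fibres, fell by 3.44 at 5-8d and fell by 2.98 (adjusted p = 0.0361) at 9-14d. General muscle fibre markers had medians of -0.14 and -0.21, with 1 of 7 called lower at 5-8d and 0 at 9-14d. Fibroblast markers were called lower in 5 of 7 genes at 5-8d and 3 at 9-14d, with medians of -2.00 and -0.66, and Col1a1, type I collagen, fell by 3.23 at 5-8d and fell by 2.18 (adjusted p = 0.00537) at 9-14d. Red cell markers were called lower in 2 of 4 genes at 5-8d and 0 at 9-14d. The lists with their lowest median at 5-8d included fast fibre, fibroblast, red cell, glycolysis and proton partner genes. The members Slc16a7, Nptn and Ldha at its own gene also had their lowest estimates at 5-8d, which were not shown to be a dip. The part of fibre type, blood or connective tissue in any member's change was not tested.

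**Figure D5:**
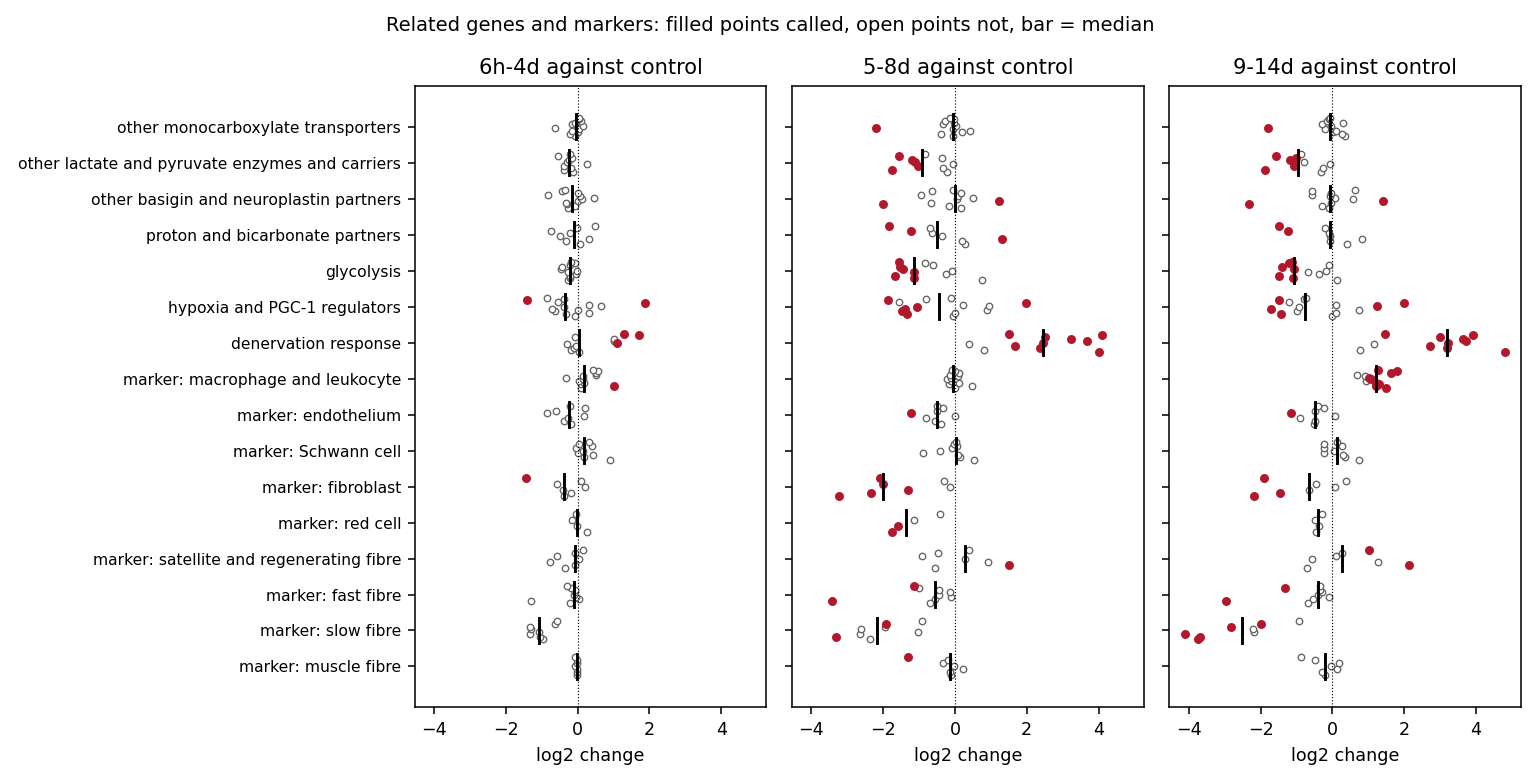
Log2 change against Control (horizontal axis) of every measured gene of the related lists and marker lists, 1 panel for each duration. Filled points were called (at least 2-fold with adjusted p below 0.05), open points were not, and black bars are list medians. The denervation response shifts to the right from 5-8d, the leukocyte markers at 9-14d only, and glycolysis, lactate and pyruvate enzymes and slow fibre markers shift to the left.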

How the data were processed

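Per the labels' tool names and the study's methods, the authors summarised the arrays by RMA (MAS5 is also named) and fitted 1 linear model in limma with 3 comparisons against Control. The authors deposited, for 26208 probe sets, a log2 change and a Benjamini-Hochberg adjusted p-value for each comparison. The table's first line calls the values lowess-normalised. These are the authors' own comparisons and the only values used here, since the members are defined on them. Columns of single samples left unused numbered 0.

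The adjustment was undone to unadjusted p-values, which gave a moderated statistic and within-group SD at 28.26 degrees of freedom (24 residual and 4.26 prior), with an SD error of at most 0.163%. Recomputed adjusted p-values changed 0 calls. Durations were compared through this SD and the numbers of rats, adjusted over all probe sets. The recovery was tested on simulated data. Python 3.11.15, numpy 2.4.6, scipy 1.17.1, pandas 2.3.3 and matplotlib 3.10.9 were used.

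The members and the 19 gene lists were chosen with earlier results of these data known. A gene with several probe sets was read, in lists, through the 1 with a single symbol and most probes. Named genes were all members, the called gene with the largest rise and fall of each list at 9-14d, the 5 nearest in pattern to Emb and the 3 nearest to other called members. A few genes that this rule or a list would name are not reported here, and lists are counted without them. Positions are RGSC 3.4 for probe sets and GRCr8 for promoters. Precision is limited by the number of rats.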

Additional observations from a re-analysis of the deposited data

Results flagged for a closer look

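The members whose change against Control differed between durations are listed here by the test of the difference itself, the limma-based statistic with Benjamini-Hochberg adjustment over all probe sets. From 6h-4d to 5-8d, Bsg was higher by 0.68 log2 units (adjusted p = 7.77e-07), Nptn differed by -0.39 (adjusted p = 0.0227) and Slc16a3 by -2.51 (adjusted p = 0.000325). From 6h-4d to 9-14d, Bsg was higher by 0.72 (adjusted p = 9.57e-09), Slc16a1 differed by -0.67 (adjusted p = 0.00125), Slc16a3 by -3.18 (adjusted p = 8.37e-07) and the probe set of Csnk1d with Slc16a3 by -0.34 (adjusted p = 0.00321).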

How the results depend on the processing

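Of the recomputed counts over the members or all listed genes, 34 stayed within 1.5 times and 11 did not. With no fold change minimum, the member probe sets other than Emb that passed numbered 1 in place of 0 at 6h-4d, 5 in place of 3 at 5-8d and at 9-14d, 3 in place of 1 from 6h-4d to 5-8d and 4 in place of 1 from 6h-4d to 9-14d. All listed genes other than members then numbered 15 in place of 7, 71 in place of 46 and 86 in place of 52 at the 3 durations. With a minimum of 1.5-fold, 5 member probe sets passed at 9-14d, and 12 listed genes at 6h-4d, where an adjusted p below 0.01 left 4. These alternatives differ from the rule used only in their thresholds. Of single members, Slc16a1 at 9-14d lost its call when each comparison was centred on its median (-0.95) and Ldhb lost it with adjustment over the 3 comparisons together (adjusted p = 0.0525). Ldha at 9-14d, which had passed only without the fold minimum, no longer did so under these 2 settings (adjusted p = 0.0783 and 0.0688). The cause was not tested. Centring turned the sign of values near 0, the probe set of Csnk1d with Slc16a3 at 9-14d (0.061) and Ldhb from 5-8d to 9-14d (0.0029). Leaving out each rat in turn was not run, because it needs values of single rats, so it is not known whether 1 rat carries a change. No paired analysis was possible because the groups share no replicate numbers and the table holds no values of single rats.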
